A study of Homo sapiens with 4 samples.

Results

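Ribosome assembly factors are the proteins that cut, fold and modify ribosomal RNA (rRNA) and load ribosomal proteins onto it before the finished subunits leave the nucleus. A set of 39 such genes, named by symbol and mostly active in the nucleolus, was followed here among the 17656 genes with a value, and all 39 were found by their Ensembl identifier and had enough signal to be tested. They were sorted by textbook role into 16 factors of the small subunit, 16 factors of the large subunit and 7 factors of the nucleolus that serve both subunits or the transcription of rRNA genes. The question was whether their transcripts differed between the groups, and whether small-subunit and large-subunit factors differed alike.

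Total RNA of U937, an established human cell line with monocytic features, was sequenced in 4 libraries. The study counts U937 among its acute myeloid leukemia lines. The 2 libraries named NC came from cells that the labels describe as having no treatment, and the labels do not say whether these cells carried a control hairpin. Elsewhere the study names its negative control hairpin sh-NC and the nontargeting control of its knockouts sgNC. The 2 libraries named sh-ZNF217 came from U937 cells with ZNF217 knocked down, per the labels. The study describes knockdown with a short hairpin RNA from a lentiviral vector in its methods and a knockout of the gene in its account of these data, so the kind of perturbation could not be settled. The labels give no further treatment, dose or time for either group, and the column names of both hold a part, D4, that no source used here explains. Whether libraries of a group were grown as separate cultures was not stated, so p-values cover the spread among these samples alone, and that spread may be technical.

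Most ribosomal RNA is made as a long precursor, copied in the nucleolus by RNA polymerase I, and is then cut into rRNAs of both subunits. The small-subunit processome, a large particle built around the U3 small nucleolar RNA, forms on the leading part of the precursor as it is made. Factors of the large subunit gather on the later part. Cells that divide fast, leukemia cells among them, keep these genes at high levels, and MYC is a well-known activator of many of them.

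Values were TPM, a gene's portion of all transcripts in a library once transcript length is accounted for, so that levels of different genes can be compared. TPM keeps no record of read number, and the sequencing depth was unknown. Groups were compared on the log2(TPM + 1) scale with limma and Benjamini-Hochberg adjustment over 14582 genes, and every adjusted p below comes from that fit. A log2 fold change is the libraries labelled sh-ZNF217 minus NC. A gene was called lower or higher at an adjusted p below 0.05 and a log2 fold change of over 0.5 in size.

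The targeted gene was examined first, and its transcript did not mark the groups. ZNF217, a transcriptional repressor with zinc fingers, was at 36.1 and 36.7 TPM in NC and at 35.8 and 35.0 TPM in libraries labelled sh-ZNF217 (log2 fold change -0.04, 95% interval -0.22 to 0.14, adjusted p = 0.74). The study reports that its hairpins lowered ZNF217 mRNA and protein in leukemia cell lines, measured by other assays. In the libraries here the transcript gave no such mark, so directions below were drawn from the label alone. MYC was at 158 and 150 TPM in NC and at 80.0 and 88.2 TPM in libraries labelled sh-ZNF217 (log2 fold change -0.87, adjusted p = 0.00339), and the part of MYC in the levels of the assembly factors was not tested. Markers of the cell type were then looked at. All 16 myeloid markers looked for had a value, with summed levels of 6063 to 6064 TPM in NC and 8256 to 8420 TPM in libraries labelled sh-ZNF217. Of these markers 4 were called higher (PTPRC, LYZ, TYROBP and CSF1R), as were 6.26% of all tested genes. Another 4 were called lower (AZU1, PRTN3, CTSG and ELANE), as were 2.46% of all tested genes. Most of the summed level was LYZ, or lysozyme, at 3270 and 3256 TPM in NC and at 5511 and 5328 TPM in libraries labelled sh-ZNF217. MPO, which encodes myeloperoxidase, was near 0 at 0.0854 to 0.513 TPM in the 4 libraries and was not tested. Markers of other lineages were at low sums, with 5.51 to 10.7 TPM against 4.45 to 7.06 TPM over 3 of 6 B-cell markers (PAX5 called lower), and at most 4.25 TPM for the only erythroid or megakaryocyte marker with a value and 1.40 TPM for the only epithelial or fibroblast one. Over 3 of 9 T-cell and NK-cell markers the sums were 70.1 to 87.1 TPM against 102 to 113 TPM, nearly all of it NKG7, with CD2 called higher and no value for CD3D, CD3E and CD3G. Their part in the results was not tested.

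Promoter sequence was looked at beside the levels, because many of these genes share a short element near their start. The letters CACGTG form the canonical E-box, the core that MYC with its partner MAX and several other factors bind. RefSeq promoter windows, from 250 bases before to 50 bases after a start, were available for 33 of the 39 genes. The E-box stood in a window of 19 of those 33 genes (57.6%), against 12.9% of 9483 tested genes and 8.77% of all 27305 genes with windows. Per window, 48.8% of 41 windows held it, against 9.62% of those of tested genes. The sites of LYAR, EBNA1BP2 and DDX21 are shown because these genes were called lower, and those of GNL3 and GNL2 because these paralogues are compared below, with the E-box in capitals and each sequence read 5′ to 3′ on the strand of its gene in build GRCh38.p14. The sites of MRTO4, RRP9 and RCL1 follow no such rule and were picked as further examples after their values were seen.
LYAR, chr4:4290068-4290097, minus strand: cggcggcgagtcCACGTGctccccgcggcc
EBNA1BP2, distal site, chr1:43172790-43172819, minus strand: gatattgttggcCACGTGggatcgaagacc
EBNA1BP2, proximal site, chr1:43172241-43172270, minus strand: tggcgctggagcgattcggtggCACGTGga
DDX21, chr10:68956604-68956633, plus strand: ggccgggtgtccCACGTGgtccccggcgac
GNL3, chr3:52686026-52686055, plus strand: ggcttcagttcaCACGTGgcgccagcggag
GNL2, chr1:37595917-37595946, minus strand: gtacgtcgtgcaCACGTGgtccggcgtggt
MRTO4, chr1:19251807-19251836, plus strand: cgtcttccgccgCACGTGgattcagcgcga
RRP9, chr3:51941892-51941921, minus strand: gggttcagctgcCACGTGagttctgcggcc
RCL1, chr9:4792936-4792965, plus strand: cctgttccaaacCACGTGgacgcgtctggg

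The E-boxes shown lay at different distances from the start. In the genes called lower, that of DDX21 began at -31, that of LYAR at -64, and those of EBNA1BP2 at -237 and 43, counted from the RefSeq start of their window. The E-box of GNL2 began 4 bases after the RefSeq start, that of RCL1 5 bases after, that of GNL3 7 bases after and that of MRTO4 15 bases after. The E-box of RRP9 ran across its start, from -5 to 1. Over the 21 E-boxes of the assembly factors, 13 began after the start (61.9%), against 146 of 1413 in tested genes (10.3%). In the GENCODE annotation 17 of the 21 lay within an exon of their own gene, in 16 of them in an untranslated part of at least 1 transcript, 2 lay before the gene and 2 ran across its start. The distal E-box of EBNA1BP2 also lay in an exon of CFAP57, on the other strand.

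**Figure D1:**
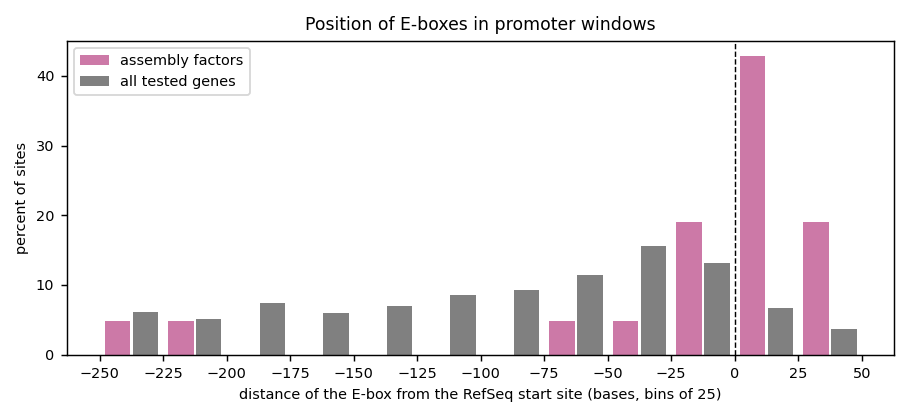
Position of each E-box (CACGTG) in the promoter windows, in bins of 25 bases from the RefSeq start (horizontal axis, bases), as the percentage of all such sites (vertical axis) for the assembly factors (21 sites) and for all tested genes (1413 sites). The first 25 bases after the start held 42.9% of the sites of the assembly factors and 6.72% of those of tested genes.

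The assembly factors were also split by whether a window held an E-box. Whether an E-box goes with the size of the difference was not tested, and E-boxes outside the windows were not looked for. The 19 genes with an E-box in a window had a median log2 fold change of -0.32, and 3 of them were called lower. The 14 genes whose windows lacked it had a median of -0.38, and 4 of them were called lower. These 4 were PPAN, NOP16, IMP3 and PA2G4, and 3 of them (PPAN, NOP16 and PA2G4) held the letters CCGGAA, a core that ETS family factors bind, on either strand. Those letters were also in windows of LYAR, EBNA1BP2 and DDX21, and in total in 17 of 33 assembly factors (51.5%), against 36.3% of tested genes and 20.1% of all genes with windows. Uncalled genes held them too, among them WDR74, NOP2, UTP4, BRIX1 and IMP4. Whether having these letters goes with the size of the difference was not tested. IMP3 held neither motif. The site nearest to the start, or the pair of sites, of PPAN, NOP16, PA2G4 and LYAR is shown with the motif in capitals, in either orientation, as TTCCGG or CCGGAA. In NOP16 the letters on both strands overlap.
PPAN, chr19:10106329-10106358, plus strand: gCCGGAAgtgagctgcgcagcgCCGGAAgc
NOP16, chr5:176388599-176388628, minus strand: cttgtgcacgccTTCCGGAAggagtttgtt
PA2G4, distal site, chr12:56104311-56104340, plus strand: tggaagtggtttTTCCGGgagagaccacgc
PA2G4, proximal site, chr12:56104397-56104426, plus strand: agtgcccggcgaTTCCGGcgtgcgaggccc
LYAR, chr4:4290219-4290248, minus strand: ccccttggcttgCCGGAAccgccttcctgc

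The sites of PPAN, PA2G4 and LYAR lay before their genes in GENCODE, those of PPAN within an exon of the readthrough gene PPAN-P2RY11, and the NOP16 site lay in an exon of NOP16 and of ARL10 on the other strand. A match is a description of these letters in this window and says nothing of binding in U937 cells.

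All 39 assembly factors were at a lower mean in the libraries labelled sh-ZNF217. Their summed level was 6309 and 6562 TPM in NC and 5002 and 4925 TPM in libraries labelled sh-ZNF217, a difference of -22.9%, and their share of all TPM went from 0.631% and 0.657% to 0.501% and 0.493%. Of the 39 genes, 7 were called lower, in a comparison where 2.46% of all tested genes were called lower. None was called higher by limma, where 6.26% of all tested genes were, and since all 39 differences were negative, 0 were higher at an unadjusted p below 0.05. Without the fold minimum, 24 genes were lower at an adjusted p below 0.05, against 7.11% of all tested genes, and 0 were higher by that rule, against 9.77%. In 37 of the 39, both libraries labelled sh-ZNF217 were below both NC libraries, as in 28.6% of all tested genes. The median log2 fold change of the 39 was -0.35, and that of all tested genes was 0.02.

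Because the assembly factors are well expressed, the same shares were taken over the 9038 tested genes with a mean of at least 10 TPM, a limit chosen after the data were seen. There, 2.81% were called lower, 10.3% were lower at an adjusted p below 0.05, and 34.1% had groups that did not overlap. A negative difference was found in 50.5% of those genes and in 47.5% of all tested genes. The spread between libraries of a group was small for the assembly factors, with a median absolute log2 difference of 0.0617 within NC and 0.0795 within the libraries labelled sh-ZNF217, against 0.319 to 0.358 across the groups. Over all tested genes these medians were 0.122, 0.128 and 0.243 to 0.253. All tested genes include many of low level, and these medians were not taken over the 9038 genes alone. In bulk RNA, fewer cells with a transcript and less of it per cell cannot be told apart.

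**Figure D2:**
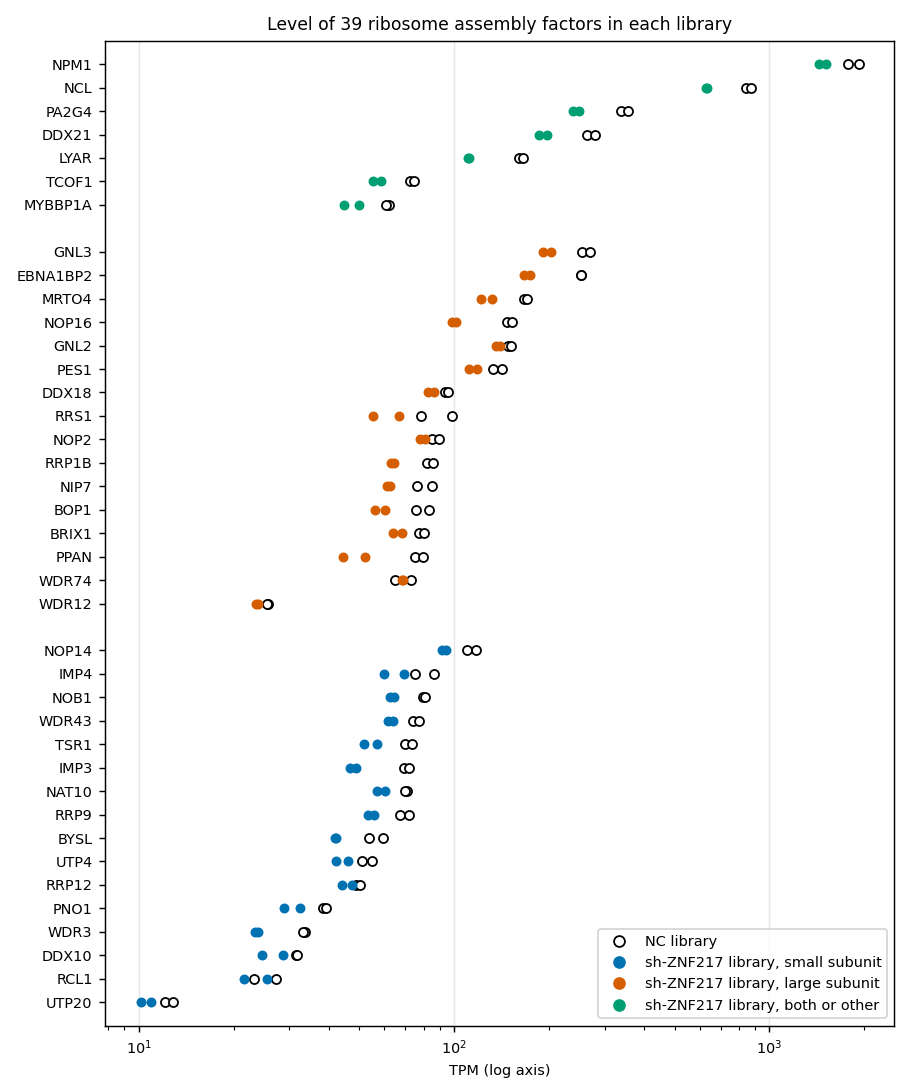
Level of each of the 39 assembly factors in TPM (horizontal log axis) in the 2 NC libraries (open circles) and the 2 libraries labelled sh-ZNF217 (filled circles, coloured by class). The filled points lie to the left of the open ones in all genes but WDR74 and RCL1, and the levels reach from NPM1 (1916 TPM) to UTP20 (10.2 TPM).

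**Figure D3:**
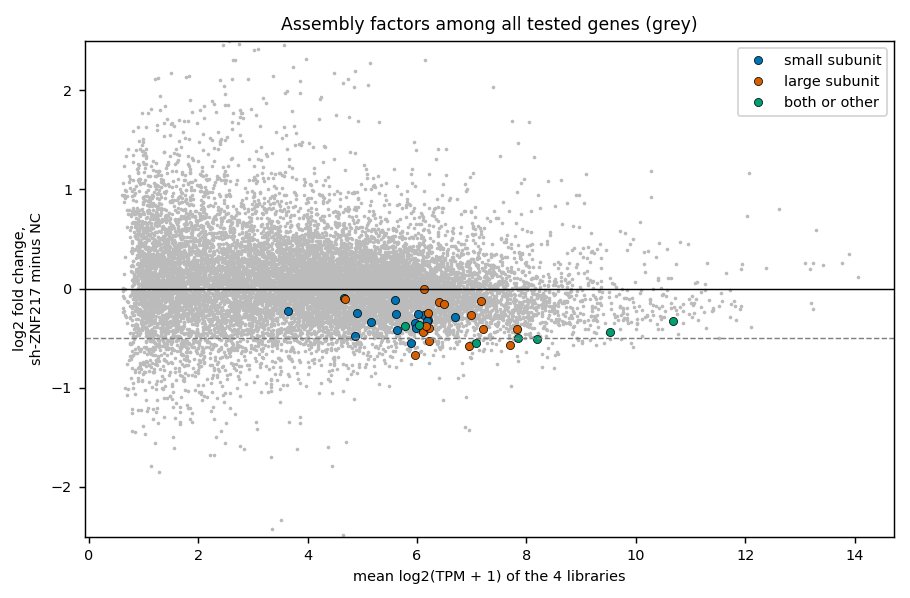
Difference in log2(TPM + 1) of the sh-ZNF217 label from NC (vertical axis), by average log2(TPM + 1) over the libraries (horizontal axis) for all tested genes (grey) and the assembly factors (coloured by class), with 17 genes outside the vertical range not drawn. The coloured points all lie below 0, between -0.0058 and -0.67, and most lie above the dashed fold minimum of -0.5.

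Differences were moderate in size. Of the 39 genes, 32 had a mean TPM lower by over 15%, with -15.5% the smallest of these differences and -37.4% the largest. The other 7 differed by -10.4% to -0.58%, and 5 of them (WDR74, WDR12, GNL2, NOP2 and DDX18) were large-subunit factors and 2 (RCL1 and RRP12) small-subunit factors. All 7 factors of the third class differed by at least -20.2%. TPM is a share, and the mitochondrially encoded transcripts, at 9.98% and 10.8% of TPM in NC, were at 12.5% and 12.7% in the libraries labelled sh-ZNF217. Without them 5 of the 39 genes were called lower, DDX21 and PA2G4 having come to -0.46 and -0.47, short of the fold minimum.

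The factors that serve both subunits or rRNA transcription held the most abundant transcripts of the set, and 3 of the 7 were called lower. LYAR, a nucleolar zinc finger protein that acts in early rRNA processing and cell growth, was at 161 and 165 TPM in NC and at 111 and 111 TPM in libraries labelled sh-ZNF217. It lies on chromosome 4, minus strand (4267701 to 4290154, build hg38 here and for the genes below). Its log2 fold change was -0.55 (95% interval -0.68 to -0.42, adjusted p = 0.0052), and it shares no exon with another gene. PA2G4, a binding partner of a growth factor receptor that is also found on ribosome precursors, was at 339 and 356 TPM in NC and at 248 and 239 TPM in libraries labelled sh-ZNF217. Its log2 fold change was -0.51 (95% interval -0.64 to -0.38, adjusted p = 0.00615). PA2G4, on the plus strand of chromosome 12 (56104537 to 56113910), overlaps other genes in 24.9% of its exonic bases and has 6 annotated pseudogenes, 3 of them with values, so its level carries that uncertainty. DDX21, a DEAD-box RNA helicase that links rRNA transcription to processing, was at 264 and 280 TPM in NC and at 197 and 186 TPM in libraries labelled sh-ZNF217. Its log2 fold change was -0.50 (95% interval -0.65 to -0.35, adjusted p = 0.00823), at the fold minimum itself. DDX21 is on the plus strand of chromosome 10 (68956135 to 68985068) and shares no exon. In all 3 genes the groups lay well apart.

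The other 4 of these factors were lower at an adjusted p below 0.05 and short of the fold minimum. NCL, which encodes nucleolin, a major RNA-binding protein of the nucleolus, was at 842 and 872 TPM in NC and at 635 and 630 TPM in libraries labelled sh-ZNF217 (log2 fold change -0.44, adjusted p = 0.00593). NPM1, the chaperone nucleophosmin, a frequent mutation target in acute myeloid leukemia, was the most abundant gene of the set, at 1773 and 1916 TPM in NC and at 1514 and 1431 TPM in libraries labelled sh-ZNF217 (log2 fold change -0.32, adjusted p = 0.0206). NPM1 has 49 annotated pseudogenes, 5 of them with values in the table, and how reads were divided among them is unknown. TCOF1, or treacle, an activator of rRNA transcription, was at 72.4 and 74.5 TPM against 55.2 and 58.5 TPM (log2 fold change -0.36, adjusted p = 0.022). MYBBP1A, a nucleolar protein that binds MYB and restrains RNA polymerase I, was at 62.1 and 60.6 TPM against 44.7 and 49.8 TPM (log2 fold change -0.37, adjusted p = 0.0308). The class as a whole summed to 3513 and 3723 TPM in NC and to 2804 and 2706 TPM in libraries labelled sh-ZNF217, a difference of -23.8%, and its median log2 fold change was -0.44.

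Among the 16 factors of the large subunit, 3 were called lower and 9 were lower at an adjusted p below 0.05, with a median log2 fold change of -0.38. EBNA1BP2, a scaffold of early large-subunit precursors, was at 252 and 253 TPM in NC and at 173 and 167 TPM in libraries labelled sh-ZNF217. Its log2 fold change was -0.57 (95% interval -0.69 to -0.44) with an adjusted p of 0.00467, the smallest of the 39 genes. EBNA1BP2 is on the minus strand of chromosome 1 (43164175 to 43270936), and 15.4% of its exonic bases overlap other genes, mainly CFAP57 on the other strand. NOP16, a protein of early large-subunit precursors, was at 147 and 153 TPM in NC and at 98.6 and 102 TPM in libraries labelled sh-ZNF217 (log2 fold change -0.58, 95% interval -0.72 to -0.44, adjusted p = 0.00527). It is on the minus strand of chromosome 5 (176383946 to 176388927) and shares 18.6% of its exonic bases with ARL10 and HIGD2A on the other strand. HIGD2A, a respiratory chain factor, was at 191 and 167 TPM in NC and at 174 and 175 TPM in libraries labelled sh-ZNF217 (log2 fold change -0.03, adjusted p = 0.801).

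PPAN had the largest difference of the 39 genes, with a reservation about its neighbour. PPAN, a Brix-domain protein that acts in maturation of the large subunit, was at 74.9 and 79.7 TPM in NC and at 52.3 and 44.4 TPM in libraries labelled sh-ZNF217 (log2 fold change -0.67, 95% interval -0.91 to -0.43, adjusted p = 0.0126). It lies on the plus strand of chromosome 19 (10106362 to 10112012), and 49.2% of its exonic bases are shared with other genes, chiefly PPAN-P2RY11, a readthrough transcript on the same strand. PPAN-P2RY11 was at 12.8 and 12.9 TPM in NC and at 17.3 and 24.5 TPM in libraries labelled sh-ZNF217 (log2 fold change 0.64, adjusted p = 0.0553). How reads on the shared exons were divided was not given, so the values were also added. The sum was 87.7 and 92.6 TPM in NC and 69.6 and 68.9 TPM in libraries labelled sh-ZNF217, a difference of -23.2%, where PPAN alone differed by -37.4%.

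Other large-subunit factors were lower without reaching the fold minimum, or missed the threshold. BOP1, which with PES1 and WDR12 forms the PeBoW complex needed for large-subunit rRNA processing, was at 83.2 and 75.7 TPM in NC and at 56.3 and 60.5 TPM in libraries labelled sh-ZNF217 (log2 fold change -0.44, adjusted p = 0.021). GNL3, the nucleolar GTPase nucleostemin, was at 254 and 269 TPM against 202 and 191 TPM (log2 fold change -0.41, adjusted p = 0.0128). MRTO4, which holds the place of the ribosomal stalk protein on precursors, was at 166 and 170 TPM against 122 and 132 TPM (log2 fold change -0.41, adjusted p = 0.014). In these 3 genes the groups did not overlap. RRP1B, which brings a protein phosphatase to the nucleolus, and NIP7, a factor of rRNA processing, had log2 fold changes of -0.39 (adjusted p = 0.0154) and -0.38 (adjusted p = 0.0273). RRS1, which helps dock the particle of the smallest rRNA, was at 98.5 and 78.5 TPM in NC and at 55.3 and 67.0 TPM in libraries labelled sh-ZNF217. Its log2 fold change of -0.52 was past the fold minimum, but its libraries spread more than those of its peers, and the adjusted p was 0.0556. BRIX1, a Brix-domain protein of large-subunit precursors, was at 77.1 and 80.1 TPM against 68.1 and 64.1 TPM (log2 fold change -0.25, adjusted p = 0.0556).

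The remaining large-subunit factors differed least, by at most -10.4% of their mean TPM. WDR74, a partner of the ATPase that frees factors from large-subunit precursors, was at 64.8 and 73.1 TPM in NC and at 68.3 and 68.9 TPM in libraries labelled sh-ZNF217, so its groups overlapped, and the log2 fold change was -0.0058 (95% interval -0.20 to 0.19). In WDR74, 22.3% of exonic bases overlap other genes, among them TEX54 and the small nuclear RNA RNU2-2P on the same strand. WDR12 was at 25.6 and 25.5 TPM against 23.6 and 23.9 TPM (log2 fold change -0.10, 95% interval -0.30 to 0.10). GNL2, a GTPase related to GNL3, was at 148 and 152 TPM against 136 and 140 TPM (log2 fold change -0.12, 95% interval -0.25 to 0.01). These intervals end short of the fold minimum. NOP2, an rRNA cytosine methyltransferase, was at 85.0 and 89.7 TPM against 78.1 and 81.0 TPM (log2 fold change -0.13, adjusted p = 0.198), and 54.4% of its exonic bases are shared with a gene on the same strand known only by its identifier. DDX18, a DEAD-box helicase, was at 93.7 and 95.3 TPM against 86.4 and 82.8 TPM (log2 fold change -0.16, adjusted p = 0.123).

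**Figure D4:**
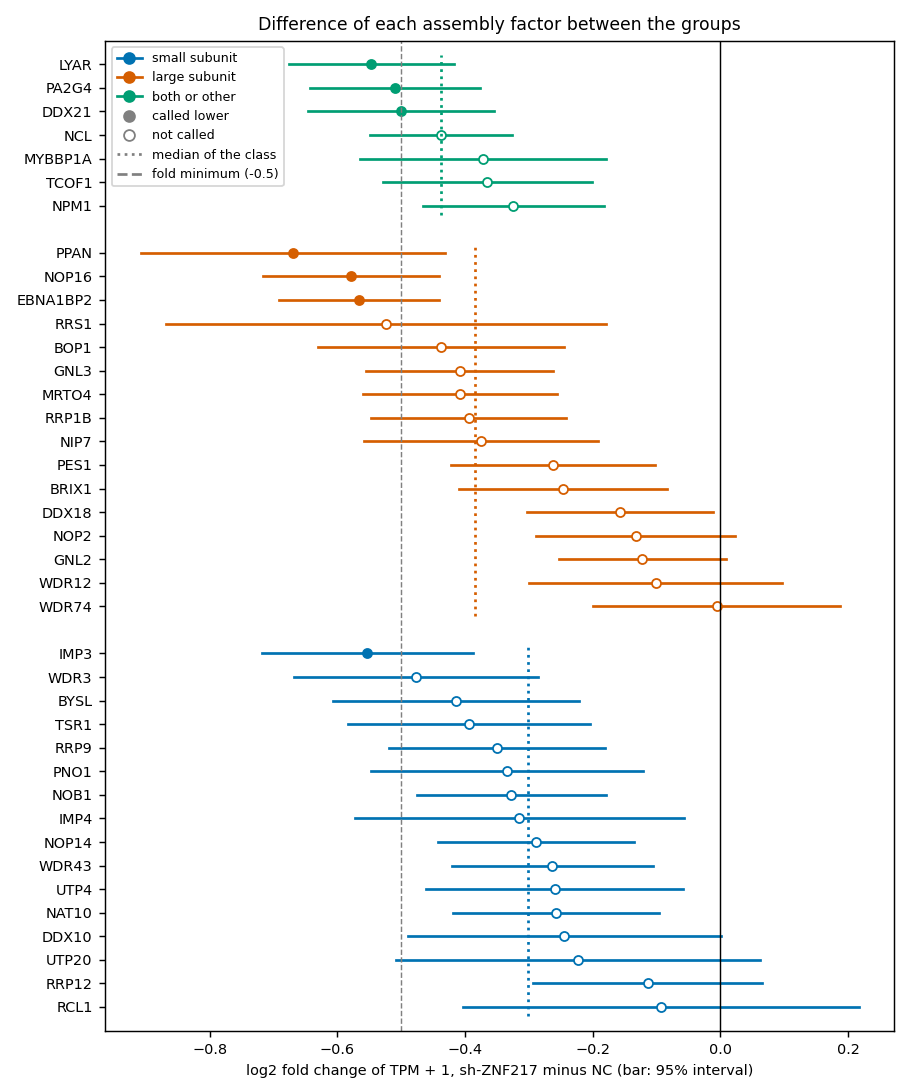
Difference in log2(TPM + 1) of the sh-ZNF217 label from NC (horizontal axis), of each assembly factor with its 95% interval from limma (bars), grouped and coloured by class, with filled points for genes called lower and a dotted line at the median of each class (-0.44, -0.38 and -0.30 from top to bottom). The 7 filled points lie at or beyond the dashed fold minimum, while WDR74 sits at 0 within the large-subunit class.

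Of the 16 small-subunit factors, 1 was called lower and 8 were lower at an adjusted p below 0.05, with a median log2 fold change of -0.30. The called gene was IMP3, which with IMP4 and MPP10 joins the U3 particle to the rRNA precursor. IMP3 was at 69.2 and 72.1 TPM in NC and at 49.0 and 46.7 TPM in libraries labelled sh-ZNF217 (log2 fold change -0.55, 95% interval -0.72 to -0.39, adjusted p = 0.00863). It is on the minus strand of chromosome 15 (75639085 to 75648706), and 58.1% of its exonic bases overlap SNX33 and unnamed genes on the other strand. Whether reads were counted by strand was not given, and SNX33 itself was at 4.12 to 5.58 TPM in the 4 libraries. IMP4 was at 75.3 and 86.4 TPM in NC and at 60.0 and 69.6 TPM in libraries labelled sh-ZNF217 (log2 fold change -0.32, adjusted p = 0.0933).

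Factors of the processome that form its early modules differed unevenly. WDR3, of the UTP-B module, was at 33.6 and 33.1 TPM in NC and at 23.4 and 23.9 TPM in libraries labelled sh-ZNF217, which was just short of the fold minimum (log2 fold change -0.48, adjusted p = 0.0165). WDR43, of the UTP-A module that also aids rRNA transcription, was at 74.1 and 77.2 TPM against 64.1 and 61.7 TPM (log2 fold change -0.26, adjusted p = 0.0449). UTP4, of the same module, was at 51.1 and 54.9 TPM against 42.1 and 46.1 TPM (log2 fold change -0.26, adjusted p = 0.0825). Libraries of the groups did not overlap in these 3 genes. RRP9, a protein specific to the U3 particle, was at 67.5 and 71.8 TPM against 55.5 and 53.3 TPM (log2 fold change -0.35, adjusted p = 0.0265). NOP14, a scaffold of the processome, was at 118 and 110 TPM against 91.7 and 94.1 TPM (log2 fold change -0.29, adjusted p = 0.0333) and was the most abundant factor of this class in NC, with 20.7% of its exonic bases shared with NOP14-AS1 on the other strand. UTP20, a large helical scaffold, was the least abundant of the 39 genes, at 12.1 and 12.9 TPM against 10.2 and 10.9 TPM (log2 fold change -0.22, adjusted p = 0.23). DDX10, a DEAD-box helicase of the processome, was at 31.5 and 31.8 TPM against 24.6 and 28.6 TPM (log2 fold change -0.24, adjusted p = 0.146).

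Enzymes and late factors of the small subunit showed the same direction. NOB1, the endonuclease that makes the mature end of the small-subunit rRNA, was at 79.5 and 80.7 TPM in NC and at 62.8 and 64.5 TPM in libraries labelled sh-ZNF217 (log2 fold change -0.33, adjusted p = 0.0228). PNO1, which holds that cleavage site, was at 38.4 and 39.4 TPM against 32.4 and 29.0 TPM (log2 fold change -0.33, adjusted p = 0.0515). NAT10, which acetylates cytidines of the small-subunit rRNA, was at 70.9 and 69.6 TPM against 60.3 and 56.9 TPM (log2 fold change -0.26, adjusted p = 0.0501). PNO1 and NAT10 thus missed the threshold narrowly, with groups that did not overlap. BYSL, or bystin, a factor of late small-subunit precursors, was at 59.5 and 53.7 TPM against 42.3 and 42.0 TPM (log2 fold change -0.41, adjusted p = 0.0243). TSR1, a GTPase-like protein of late precursors, was at 70.1 and 73.4 TPM against 57.1 and 51.7 TPM (log2 fold change -0.39, adjusted p = 0.0263). RRP12, which aids export of precursors, was at 48.8 and 50.1 TPM against 43.9 and 47.3 TPM (log2 fold change -0.11, adjusted p = 0.322). RCL1, needed for an early cut in the precursor, was at 27.2 and 23.2 TPM against 21.6 and 25.5 TPM, so its groups overlapped (log2 fold change -0.09, 95% interval -0.40 to 0.22).

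The small-subunit and large-subunit factors were then set side by side. The small-subunit factors summed to 926 and 940 TPM in NC and to 741 and 752 TPM in libraries labelled sh-ZNF217, a difference of -20.0%. The large-subunit factors summed to 1870 and 1899 TPM in NC and to 1457 and 1467 TPM in libraries labelled sh-ZNF217, a difference of -22.4%. The ratio of the small-subunit to the large-subunit sum was 0.495 in both NC libraries and 0.509 and 0.512 in the libraries labelled sh-ZNF217. Neither sums nor ratios overlapped between the groups, but 2 against 2 libraries cannot give an exact two-sided permutation p below 0.333, so no test was made. The medians of the classes differed by 0.0826 on the log2 scale, and by 0.0121 without NC replicate 1. In both classes 15 of 16 genes had both libraries labelled sh-ZNF217 below both NC libraries. This was so in 28.6% of all tested genes and in 34.1% of those with a mean of at least 10 TPM.

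**Figure D5:**
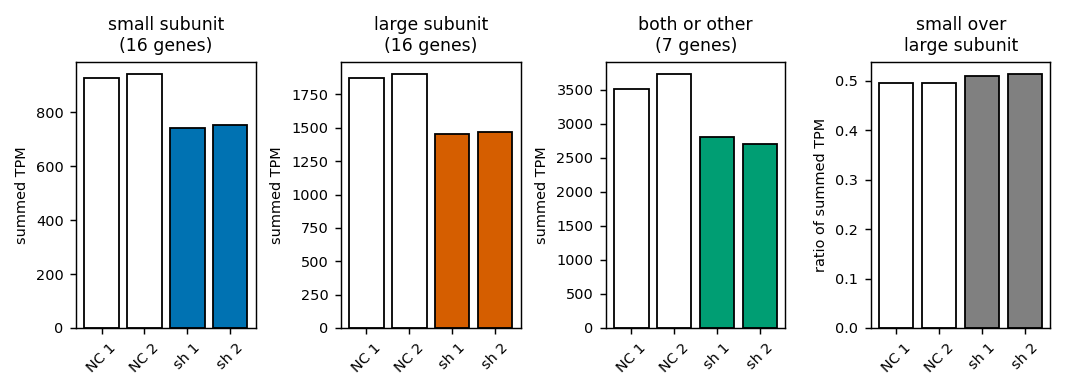
Summed TPM of the small-subunit factors, the large-subunit factors and the factors of both or other roles in each library, and the ratio of the small-subunit to the large-subunit sum (bars from 0, 1 bar per library; white, NC; filled, sh-ZNF217). The 3 sums are lower in both libraries labelled sh-ZNF217, while the ratio moves from 0.495 to 0.509 and 0.512.

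The balance of transcripts within known pairs and complexes was also followed. The pairs were chosen as known partners or paralogues with results known, and their ratios were not tested. The ratio of GNL3 to GNL2, both GTPases of the large subunit with an E-box just after the start, was 1.71 and 1.77 in NC and 1.49 and 1.37 in the libraries labelled sh-ZNF217. The ratio of the helicases DDX21 and DDX18 was 2.81 and 2.94 in NC against 2.28 and 2.25. In the PeBoW complex, the ratio of PES1 to WDR12 was 5.18 and 5.58 against 4.71 and 4.93, and that of PES1 to BOP1 was 1.60 and 1.88 against 1.97 and 1.95. PES1 itself was at 133 and 142 TPM in NC and at 111 and 118 TPM in libraries labelled sh-ZNF217 (log2 fold change -0.26, adjusted p = 0.0472). The ratio of IMP4 to IMP3 was 1.09 and 1.20 against 1.23 and 1.49, and that of NPM1 to NCL was 2.11 and 2.20 against 2.39 and 2.27. The groups did not overlap in these ratios, though narrowly for PES1 to BOP1, IMP4 to IMP3 and NPM1 to NCL. Here too, 2 against 2 libraries cannot give an exact two-sided permutation p below 0.333. How often the ratios of other gene pairs separate in this way was not computed. The ratio of NOB1 to PNO1 was 2.07 and 2.05 against 1.94 and 2.23, and there the groups overlapped.

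Genes called lower were found with and without exons that overlap another gene. Exons of 22 of the 39 genes do, and 5 of those were called lower and 15 were lower at an adjusted p below 0.05, with a median log2 fold change of -0.38. Of the 17 genes without such overlap, 2 (LYAR and DDX21) were called lower and 9 were lower at an adjusted p below 0.05, with a median of -0.32.

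The rest of the pathway, from lists chosen with earlier results of these data known, was lower by less. Calls with the fold minimum were about as frequent there as among all tested genes, of which 2.46% were called lower. Of 41 other small-subunit factors, 1 was called lower (UTP3, a processome protein, at 30.2 and 31.0 TPM against 21.6 and 20.7 TPM, log2 fold change -0.51, adjusted p = 0.0161). The list had 6 genes lower at an adjusted p below 0.05, 39 negative differences and a median log2 fold change of -0.20. Of 50 other large-subunit factors, 2 were called lower, 11 were lower at an adjusted p below 0.05 and 40 had a negative difference, with a median of -0.19. The called genes were CCDC86, a nucleolar protein, at 73.6 and 70.8 TPM against 45.6 and 52.7 TPM (log2 fold change -0.55, adjusted p = 0.0163), and WDR18, of a complex that remodels large-subunit precursors, at 65.5 and 55.7 TPM against 43.7 and 41.0 TPM (log2 fold change -0.50, adjusted p = 0.026). Of these 91 genes, 3 were called lower and 0 were called higher. Without the fold minimum, 17 were lower at an adjusted p below 0.05, against 7.11% of all tested genes. Negative differences made up 86.8% of the 91, against 47.5% of all tested genes. In 68 of the 91, both libraries labelled sh-ZNF217 were below both NC libraries, as in 28.6% of all tested genes. By these measures the list lay above all tested genes. The summed level of the 91 differed by -12.9%, against -22.9% for the 39. Their small-to-large ratio was 0.760 and 0.749 in NC and 0.739 and 0.747 in the libraries labelled sh-ZNF217. That ratio was thus lower under the sh-ZNF217 label, narrowly without overlap, whereas the ratio within the 39 was higher. The difference between the lists was not tested, and both were chosen with results known.

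The 2 sets of genes closest in function were the core proteins of the small nucleolar RNA particles that guide rRNA modification and the subunits of RNA polymerase I. Of the 8 core proteins 4 were called lower, where 2.46% of all tested genes were, with a median log2 fold change of -0.48. All 8 differences were negative, and 6 genes were lower at an adjusted p below 0.05, against 7.11% of all tested genes. In 7 of the 8 the groups did not overlap, against 28.6%, and their summed level differed by -23.5%, near the -22.9% of the 39. Of 19 genes of RNA polymerase I and its factors 4 were called lower, with a median of -0.18. Of these 19, 16 had a negative difference and 5 were lower at an adjusted p below 0.05. Their groups did not overlap in 10, and their summed level differed by -14.5%. The medians of the 16 small-subunit and 16 large-subunit factors lay between the medians of these 2 sets.

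The calls rested on few libraries. Without sh-ZNF217 replicate 2, 3 of the 39 genes were called lower (NOP16, EBNA1BP2 and LYAR). IMP3, PPAN and DDX21 then had adjusted p of 0.0522, 0.0509 and 0.0515, and PA2G4 a log2 fold change of -0.48. Without NC replicate 2, DDX21 and PA2G4 fell short of the fold minimum at -0.46 and -0.47, and BOP1 and RRS1 were called lower, at -0.50 and -0.69. The count at an adjusted p below 0.05 went from 24 to 12 or 16 when the first or second NC library was left out, and to 8 or 6 when the first or second library labelled sh-ZNF217 was. NOP16, EBNA1BP2 and LYAR were called lower in each of the 13 alternatives.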

How the data were processed

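Total RNA of U937 cells was sequenced in 4 libraries, 2 in each group. The TPM values deposited by the authors came without a named unit. They were identified as TPM from the table, since each column sums to 998932 to 999282 and levels hardly depended on exonic length (Spearman's rho 0.17 across genes, which are not independent replicates), whereas the study names its measure FPM. Per the submitters' processing notes, reads were aligned with HISAT2 2.0.5 to hg38. How genes were quantified, with which annotation and use of strand, and at what depth is not given in the sources used here, so no counting interval could be computed.

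Each column was assigned to a sample through NC or ZNF in its name together with its replicate number, and the parts S1 and D4 of the names are unexplained. GENCODE 44 gave symbols and positions. The 14582 genes that reached 1 TPM in at least 2 libraries were transformed to log2(TPM + 1), which understates changes of low genes, and fitted with limma 3.58.1 in R 4.3.3 (group alone, trended and robust moderation), with Benjamini-Hochberg adjustment over all of them. The procedure was tested on simulated data. Sums and ratios per library were described without a test.

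Genes named were ZNF217, MYC, the 39 assembly factors and up to 4 called genes, those with the smallest p, of the lists of other small-subunit and large-subunit factors. The markers named (PTPRC, LYZ, TYROBP, CSF1R, AZU1, PRTN3, CTSG, ELANE, MPO, PAX5, CD2, NKG7, CD3D, CD3E and CD3G) were added after values were seen. So were genes that overlap or flank the assembly factors (PPAN-P2RY11, HIGD2A, SNX33) and the sites of MRTO4, RRP9 and RCL1. The members and lists were chosen with earlier results of these data known. Promoter windows came from RefSeq (GRCh38.p14), and CACGTG and CCGGAA were searched on both strands. Plots were made in Python 3.11.15 with matplotlib 3.10.9. Alternatives were other pseudocounts, filters and scalings, plain moderation, a block for the replicate number and leaving out each library.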

Additional observations from a re-analysis of the deposited data

How the results depend on the processing

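Changing the pseudocount to 0.1 or 0.5, dropping the filter, or blocking by replicate number kept the 7 calls among the 39 assembly factors. Without trended and robust moderation, 3 of the 39 were called lower and 3 were lower at an adjusted p below 0.05, with 0 small-subunit factors, 0 other assembly factors, 2 small nucleolar RNA particle proteins and 1 RNA polymerase I gene called lower, and 163 of all genes called lower and 560 higher. Leaving out 1 library at a time gave 3 to 7 of the 39 called lower, 6 to 16 lower at an adjusted p below 0.05, 0 to 1 small-subunit and 2 to 5 large-subunit factors, 1 to 4 other assembly factors, 2 to 5 RNA polymerase I genes, and 149 to 318 of all genes lower and 312 to 723 higher. It gave medians of -0.32 to -0.29 for small-subunit and -0.37 to -0.34 for large-subunit factors. Without mitochondrially encoded genes the medians were -0.27 and -0.35, and 1 other assembly factor was called lower, where a filter at 5 TPM and median-of-ratios scaling each gave 5. Reversals were confined to 2 genes whose groups overlap. The log2 fold change of RCL1 ranged from -0.2066 to 0.02 with 1 library left out (0.0192 without NC replicate 1 and 0.02 without sh-ZNF217 replicate 1), and that of WDR74 from -0.0914 to 0.0799 (0.0799 without NC replicate 2 and 0.0005 without sh-ZNF217 replicate 1), with 0.0301 without mitochondrially encoded genes and 0.0019 with protein-coding genes alone. Same-numbered libraries share only a number (their deviations from the group means had a correlation of -0.00534 across genes), and with the replicate block 7 of the 39 were called lower, 18 were lower at an adjusted p below 0.05, and 300 of all genes were called lower and 749 higher. The causes of these shifts were not tested. Depth is unknown, and 2 libraries a group limit the precision.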
